A study of Gallus gallus with 2 samples.

Results

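The heat shock chaperones described here are 10 gene symbols chosen by name: hsp70, HSPA8, HSPA2, HSPA4, HSP90AA1, HSPD1, DNAJA1, DNAJB4, BAG3 and HSF2. Of these, 9 have a row in both expression tables, out of 17108 annotated genes, and all 9 reached 1 FPKM in at least 1 library. FPKM counts fragments per kilobase of a transcript and per sequencing depth, so levels can be compared between genes. HSPA2 has no row under that symbol. The row named hsp70 lies between PPP1R36 and ZBTB1, with ZBTB25 further on. In the RefSeq gene table of the later assembly GRCg7b, the gene between PPP1R36 and ZBTB25 is called HSPA2 and carries HSP70 as a synonym. The hsp70 values below therefore stand for the gene that RefSeq calls HSPA2 in chicken.

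RNA was sequenced from 2 libraries of chick limb bud, 1 per treatment. Buds of embryos at Hamburger-Hamilton stage 22 (day 4) were cut into pieces and kept for 4 h at 37 °C, either with thalidomide at 40 µg/ml or with vehicle, 5% DMSO. Thalidomide, once given as a sedative, is a limb teratogen whose direct target is cereblon, which picks substrates for a ubiquitin ligase. The labels give no strain, sex or number of embryos and do not say whether the thalidomide pieces also received DMSO, so the presence of thalidomide and an absence of DMSO cannot be told apart. Both libraries went through cutting and culture, and no uncultured bud is among the samples.

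Chaperones of the HSP70 and HSP90 families bind unfolded protein and release it in cycles driven by ATP. J-domain proteins such as DNAJA1 and DNAJB4 deliver clients and start ATP hydrolysis by HSP70. Nucleotide exchange factors such as BAG3 and HSPA4 reopen it, and HSPD1 forms a folding chamber in mitochondria. In cells under heat or other proteotoxic stress, heat shock factors bind the promoters of many of these genes and raise their transcription. In embryos several of the same genes are transcribed without stress.

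Limb mesenchyme markers were plainly present, with 14 of 15 measured genes kept at 1 FPKM or more. Their FPKM values summed to 889 with thalidomide and 1060 with vehicle. HOXA13 is listed at 0 in both libraries. The marker sums were 641 with thalidomide and 488 with vehicle for blood genes, 67.0 and 80.9 for muscle, 79.7 and 91.5 for neural, 71.8 and 84.9 for ectoderm and 41.5 and 51.2 for endothelium. The neural sum was mostly TUBB3, at 58.6 FPKM with thalidomide and 71.5 with vehicle. Of the 6 neural genes kept, 4 were higher with thalidomide. Of 7 blood genes kept, 4 had confidence intervals that lay apart with thalidomide higher and 3 overlapped. Intervals lay apart with thalidomide lower in 9 of 14 limb mesenchyme genes and 5 of 6 endothelium genes. So they did in 3 of 6 ectoderm, 3 of 7 muscle and 2 of 6 neural genes. With thalidomide higher they lay apart in 2 mesenchyme genes, 1 endothelium gene and 1 neural gene. Of all genes at 1 FPKM or more in either library, 15.5% were higher with intervals apart and 26.9% lower. The part of blood or other cell types in the results below was not tested. In a bulk sample, fewer cells of a type and less RNA per cell cannot be told apart. Read as counting error alone, the deposited intervals give 23280002 fragments with thalidomide and 23361629 with vehicle, and these may be too low because uncertain assignment also widens the intervals. The FPKM values of all genes summed to 384280 with thalidomide and 426632 with vehicle. Transcripts of the mitochondrial genome made up 11.3% of that sum with thalidomide and 8.94% with vehicle, and the part of this shift in the results below was not tested beyond the rescaling without these genes.

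With thalidomide the cytosolic chaperones hsp70, HSPA8 and HSP90AA1 had lower mRNA levels than with vehicle. Of all genes as abundant, with a mean from 75 to 500 FPKM, 82.3% were also lower with confidence intervals apart. In that class 25.6% of genes had a lower ratio than HSPA8 and 29.5% than HSP90AA1, but only 1.23% than hsp70. The HSP70 relative HSPA4 and the J-domain gene DNAJB4 had higher levels with thalidomide. Of genes with a mean from 8 to 40 FPKM, as these have, 17% were higher with intervals apart. BAG3, DNAJA1 and the transcription factor HSF2 had levels whose confidence intervals, as deposited, overlapped between the libraries. HSPD1 was lower by a small amount that changed sign, to 0.037 ± 0.020, when the libraries were rescaled to a common FPKM total. None of the 9 reached 1.5-fold in either direction, against 0.953% of all genes higher and 0.971% lower. With shares that small, this count says little about the 9 genes. With 1 library per treatment there is no replicate error and no test, so each difference describes these 2 libraries. A ± is the error of the log2 ratio propagated from the deposited confidence limits, which cover only counting and the assignment of fragments inside 1 library.

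**Figure D1:**
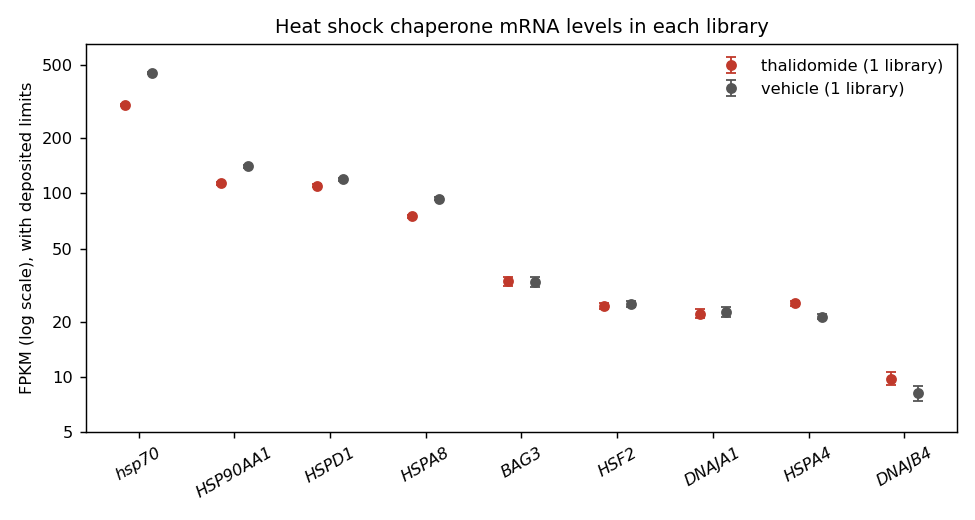
FPKM on a log axis of the 9 chaperone genes in the thalidomide library (red, left of each pair) and the vehicle library (grey, right), with the deposited confidence limits as bars. The 2 points of hsp70 lie furthest apart, at 301 and 450 FPKM, and those of BAG3, HSF2 and DNAJA1 have overlapping bars.

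The heat-inducible HSP70 of chicken cells, hsp70 (ENSGALG00000011715) lies on chromosome 5 from 52784177 to 52786081 in galGal4, the assembly named in the submitters' processing notes. The locus spans 1905 bases, exactly 635 codons. It had 301 FPKM with thalidomide (deposited limits 297 to 305) and 450 FPKM with vehicle (446 to 455). The intervals are far apart, and the thalidomide library was 33.2% lower. The log2 ratio of thalidomide over vehicle, with 1 added to each FPKM, was −0.58 ± 0.01, or 1.495-fold lower, just short of the 1.5-fold size rule. Of the 10917 genes that reached 1 FPKM in either library, 0.971% were at least 1.5-fold lower and 0.953% at least 1.5-fold higher, and 0.980% had a lower ratio than hsp70. By level, hsp70 was the gene of rank 157 with thalidomide and of rank 129 with vehicle.

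HSPA8, the constitutive HSP70 of the cytosol (chromosome 24, 3069116 to 3075912), had 75.05 FPKM with thalidomide (73.8 to 76.3) and 93.7 FPKM with vehicle (92.3 to 95.2). The intervals did not overlap, and its log2 ratio was −0.32 ± 0.02. Inside its locus lie 3 annotated copies of SNORD14, a small nucleolar RNA. The highest of them is listed at 0 with thalidomide and had 43.8 FPKM with vehicle, and at such short loci few fragments make a large FPKM. Within a library, hsp70 stood at 4.01 ± 0.04 times the FPKM of HSPA8 with thalidomide and 4.81 ± 0.04 times with vehicle, a log2 difference of −0.26 ± 0.02 that no rescaling of a library can alter.

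HSPA4, a large HSP70 relative that acts as an exchange factor for HSP70 (chromosome 13, 16530629 to 16547788), went the other way. It had 25.2 FPKM with thalidomide (24.5 to 25.9) and 21.4 FPKM with vehicle (20.7 to 22.03). These intervals did not overlap, and the log2 ratio was 0.23 ± 0.03. Relative to hsp70, HSPA4 had 0.0837 times its FPKM with thalidomide and 0.0474 times with vehicle. Because ratios went with the level of a gene, as described below, this quotient of a less and a more abundant gene includes that trend.

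HSP90AA1, the inducible cytosolic HSP90 (chromosome 5, 49388166 to 49393962), had 113 FPKM with thalidomide (111 to 115) and 140 FPKM with vehicle (138 to 143). Its intervals lay apart, with a log2 ratio of −0.31 ± 0.02. Its constitutive paralog HSP90AB1 had 244 FPKM with thalidomide and 270 with vehicle (−0.15 ± 0.01). In the rescalings described below it was at 0.005 with equal FPKM totals, within its error of 0, and at 0.044 without mitochondrial and haemoglobin genes. The inducible gene stood at 0.463 ± 0.005 of the constitutive one with thalidomide and 0.519 ± 0.005 with vehicle. Both pairs of a more and a less inducible paralog, hsp70 with HSPA8 and HSP90AA1 with HSP90AB1, had the lower quotient in the thalidomide library. These are 2 chosen pairs and do not stand for inducible genes in general. Among the other members, HSPA4 (0.23 ± 0.03) and DNAJB4 (0.24 ± 0.08) were higher with a gap and HSPD1 (−0.11 ± 0.02) was lower. BAG3, a heat shock target in mammals, had a log2 ratio of 0.01 ± 0.06 with overlapping intervals, and those of DNAJA1 and HSF2 overlapped too.

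HSPD1, the mitochondrial chaperonin HSP60 (chromosome 7, 9720880 to 9729711), had 110 FPKM with thalidomide (108 to 112) and 119 FPKM with vehicle (117 to 122). The gap between these intervals was small, and the log2 ratio of −0.11 ± 0.02 became 0.037 once both libraries were brought to equal FPKM totals. Its neighbour HSPE1, which encodes the HSP10 lid of the same chamber and starts 3065 bases beyond HSPD1, had 163 FPKM with thalidomide and 183 with vehicle (−0.16 ± 0.04, 2 rows summed). With mitochondrial and haemoglobin genes left out of the totals HSPE1 was at 0.030, within its error of 0. HSPD1 stood at 0.675 ± 0.015 of HSPE1 with thalidomide and 0.653 ± 0.014 with vehicle, a difference within 2 errors.

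DNAJB4 (chromosome 8, 17768603 to 17774875), a J-domain partner of HSP70, had the lowest level of the 9 genes. It had 9.82 FPKM with thalidomide (9.01 to 10.6) and 8.17 FPKM with vehicle (7.40 to 8.95). Its intervals are barely apart, and the log2 ratio of 0.24 ± 0.08 rests on about 584 inferred fragments with thalidomide and 448 with vehicle. DNAJA1 (chromosome Z, 70417889 to 70424546), a J-domain protein that works with HSPA8, had 22.2 FPKM with thalidomide (20.9 to 23.4) and 22.6 FPKM with vehicle (21.3 to 24.0). The intervals overlap almost completely, and the log2 ratio was −0.03 ± 0.06, with 2 errors reaching from −0.14 to 0.09. As at HSPA8, a small nucleolar RNA overlaps the locus, SNORA66, listed at 0 with thalidomide and 5.04 FPKM with vehicle. Set against HSPA8, DNAJA1 stood at 0.295 ± 0.009 with thalidomide and 0.241 ± 0.007 with vehicle. The 2 genes differ in level, and the median log2 ratio was −0.05 among genes as abundant as DNAJA1 and −0.24 among those as abundant as HSPA8 (classes given below). The quotient includes that difference.

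BAG3, an exchange factor that couples HSP70 to autophagy and is itself a heat shock target in mammals (chromosome 6, 29813247 to 29832893), had 33.2 FPKM with thalidomide (31.1 to 35.2) and 32.9 FPKM with vehicle (30.8 to 34.9). The intervals overlap, and the log2 ratio was 0.01 ± 0.06, with 2 errors reaching from −0.11 to 0.14. HSF2, a heat shock factor with roles in development (chromosome 3, 60779761 to 60800976), had 24.4 FPKM with thalidomide (23.5 to 25.3) and 24.9 FPKM with vehicle (24.0 to 25.9). Its intervals overlap too, with a log2 ratio of −0.03 ± 0.04 and 2 errors reaching from −0.11 to 0.04. On the deposited scale, any ratio inside the ranges given for DNAJA1, BAG3 and HSF2 remains possible within 2 counting errors. The ranges are not a limit of detection, since a ratio more than 2 errors from 0 can still come with overlapping intervals. HSF2 was higher with a gap once both FPKM totals were made equal (0.11), as were 32.1% of all genes. With mitochondrial and haemoglobin genes left out of the totals, HSF2 (0.15) and BAG3 (0.20) were higher with a gap, as were 37.6% of all genes. The median log2 ratio of all genes was 0.08 in the first rescaling and 0.12 in the second.

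In order of level, the thalidomide library ran hsp70, HSP90AA1, HSPD1, HSPA8, BAG3, HSPA4, HSF2, DNAJA1 and DNAJB4. Among neighbours in that order, the intervals of HSP90AA1 and HSPD1 overlapped, as did those of HSPA4 and HSF2. The vehicle library had the same first 5 genes, followed by HSF2, DNAJA1, HSPA4 and DNAJB4, and there DNAJA1 and HSPA4 overlapped. From hsp70 to DNAJB4 the levels spanned 30.6-fold with thalidomide and 55.1-fold with vehicle. The 9 genes summed to 714 FPKM with thalidomide and 914 with vehicle. Of these sums hsp70 made up 42.1% with thalidomide and 49.3% with vehicle. Without it the sums were 413 and 463 FPKM, 1.12-fold lower with thalidomide, against 1.28-fold lower with it. The FPKM total of all genes was also lower, at 384280 with thalidomide and 426632 with vehicle, so both falls include that of the whole library. Of these totals the 9 genes made up 0.186% with thalidomide and 0.214% with vehicle.

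The intervals of both libraries lay apart for 6 of the 9 genes, 2 higher with thalidomide (HSPA4 and DNAJB4) and 4 lower (hsp70, HSPA8, HSP90AA1 and HSPD1). Of all genes, 15.5% had such a gap with the thalidomide library higher and 26.9% with it lower, so that 42.4% had one in either direction. The median log2 ratio was −0.03 over the 9 genes and −0.05 over all genes, whose quartiles were −0.19 and 0.11. Both of the other scalings changed the sign of this median, to 0.11 with equal FPKM totals and to 0.15 with mitochondrial and haemoglobin genes left out of the totals. They moved the median of all genes by 0.13 and 0.16. Relative to the median of all genes, HSPA8 was at −0.27, HSP90AA1 at −0.26 and hsp70 at −0.53, while HSPA4 was at 0.28 and DNAJB4 at 0.29. These 5 genes kept their direction under every scaling tried. Each scaling raised the ratios, so of the 5 only hsp70, HSPA8 and HSP90AA1 could have changed direction, and HSPA4 and DNAJB4 could not. HSPD1, HSF2 and DNAJA1 were below 0 as deposited and above 0 in both rescalings, but HSF2 and DNAJA1 lay within their error of 0 as deposited.

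**Figure D2:**
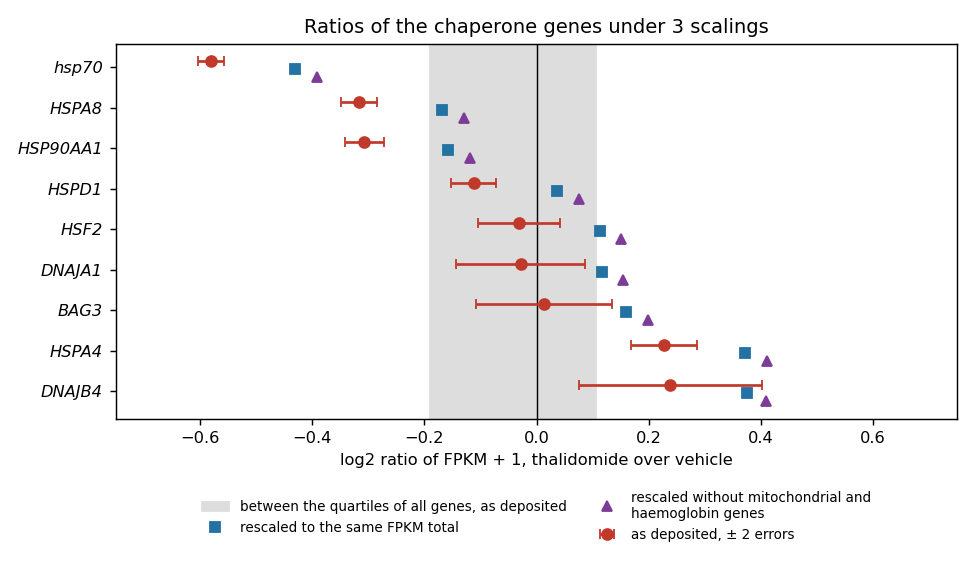
Log2 ratio of FPKM + 1, thalidomide over vehicle, for the 9 chaperone genes as deposited (red circles, bars of 2 propagated errors), rescaled to the same FPKM total (blue squares) and rescaled without mitochondrial and haemoglobin genes (purple triangles), with the range between the quartiles of all genes shaded. The order from hsp70 at −0.58 to DNAJB4 at 0.24 is nearly the same in each, since a rescaling shifts all ratios almost equally. HSPD1, HSF2 and DNAJA1 cross 0.

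The ratio also went with the level of a gene, and level classes set after the values were seen show where each chaperone stood among genes of like abundance. In the 570 genes with a mean from 75 to 500 FPKM, which include hsp70, HSP90AA1, HSPD1 and HSPA8, the median log2 ratio was −0.24 with quartiles of −0.32 and −0.13. In 82.3% of these genes the intervals lay apart with the thalidomide library lower, and in 4.04% with it higher. HSPA8 and HSP90AA1 were near the lower quartile of that class, with 25.6% and 29.5% of its genes at a lower ratio. For hsp70 only 1.23% were lower. HSPD1 was above 78.4% of the class although its own ratio was below 0. In the 4519 genes with a mean from 8 to 40 FPKM, which include the other 5, the median was −0.05. DNAJB4 was above 91.3% of them and HSPA4 above 90.5%, against 63.1% for BAG3, 54.7% for DNAJA1 and 54.2% for HSF2. In that class 17% of genes had a gap with thalidomide higher and 29.7% a gap with it lower.

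**Figure D3:**
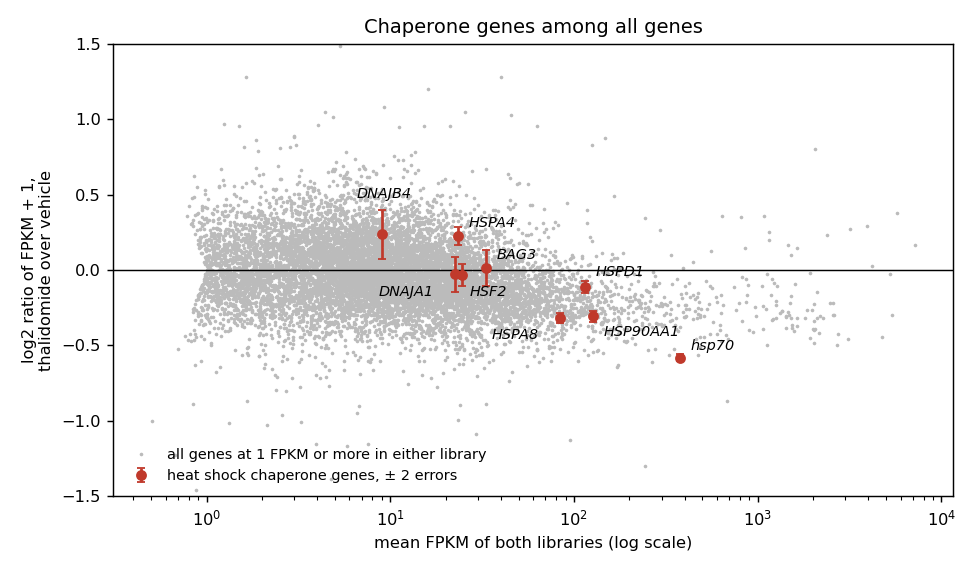
Log2 ratio of FPKM + 1, thalidomide over vehicle, against the mean FPKM of both libraries on a log axis, for all genes at 1 FPKM or more in either library (grey; 38 lie outside the plotted range) and the 9 chaperone genes (red, bars of 2 propagated errors). The grey cloud lies mostly below 0 from 75 FPKM on, HSPA8 and HSP90AA1 lie within it, and hsp70 lies at its lower edge.

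Other genes of the chaperone network were taken from 7 lists by role. Of their 115 other symbols 95 had a row, and 88 of those reached 1 FPKM in either library. None of the 88 was 1.5-fold apart in either direction, against 0.953% of all genes higher and 0.971% lower. With shares that small, this count says little about chaperone genes. Their log2 ratios ran from −0.38 to 0.40 with a median of −0.09. The intervals lay apart in 14 with thalidomide higher and in 30 with thalidomide lower. These are 15.9% and 34.1% of the 88, against 15.5% and 26.9% of all genes. With equal FPKM totals the counts were 30 higher and 8 lower, against 32.1% and 10.4% of all genes. Both rescalings raised the ratios, so the 14 genes with a gap higher stayed above 0 by construction. Of the 30 with a gap lower, which could change sign, 20 were below 0 in both. Of the genes named below, HSPA9, HSPA14, CCT6 and HSPB8 were below 0 as deposited and above 0 in both rescalings. In the rescalings HSPA14 and HSPB8 lay within their error of 0.

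Of the HSP70 family besides hsp70, HSPA8 and HSPA4, 8 genes were kept, 4 with a gap higher and 1 lower (median 0.15). The shares of all genes were 15.5% higher and 26.9% lower. HSPA5, the BiP chaperone of the endoplasmic reticulum, had 1228 FPKM with thalidomide and 1067 with vehicle (0.20 ± 0.01). HYOU1, a large HSP70 relative in the same compartment, had 44.0 FPKM with thalidomide and 33.2 with vehicle (0.39 ± 0.03). HSPA12A, a distant relative, had 7.48 and 6.34 FPKM (0.21 ± 0.05). HSPA9, the mitochondrial HSP70, had 101 FPKM with thalidomide and 109 with vehicle (−0.11 ± 0.02), and HSPA14, a ribosome-associated member, had 10.1 and 11.1 FPKM with overlapping intervals. HSPH1, an HSP110, had 5.80 FPKM with thalidomide and 5.57 with vehicle (0.05 ± 0.06), also overlapping. With equal FPKM totals, which raised the ratios, all 8 were above 0, and the median of all genes was 0.08. HSPA5 had 4.08 times the FPKM of hsp70 with thalidomide and 2.37 times with vehicle.

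Of the HSP70 exchange factors and partner ligases, 10 were kept, 2 with a gap higher, 2 lower and 6 overlapping (median −0.05). GRPEL1 and GRPEL2, exchange factors for the mitochondrial HSP70, were higher, GRPEL1 at 21.3 FPKM with thalidomide and 17.5 with vehicle (0.27 ± 0.05) and GRPEL2 at 0.16 ± 0.04. ST13, which stabilises HSP70 bound to its client, had 55.2 FPKM with thalidomide and 64.3 with vehicle (−0.22 ± 0.02). STUB1, the ubiquitin ligase CHIP that marks chaperone clients, was at −0.19 ± 0.07. Among J-domain genes other than DNAJA1 and DNAJB4, 33 were kept, 4 with a gap higher, 8 lower and 21 overlapping (median −0.08). Of all genes 15.5% had a gap higher and 26.9% a gap lower, and neither list was far from these shares. DNAJC16 was highest, with 6.05 FPKM with thalidomide and 4.33 with vehicle (0.40 ± 0.06), and then DNAJC7, a cochaperone that binds both HSP70 and HSP90, with 20.5 and 16.1 FPKM (0.33 ± 0.03). DNAJC30, a mitochondrial protein, was lowest at −0.35 ± 0.14 with overlapping intervals. DNAJC9, a histone chaperone, had 24.8 FPKM with thalidomide and 30.6 with vehicle (−0.29 ± 0.05). DNAJB1 has no row under that symbol and is not analysed here.

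HSP90 and its cochaperones besides HSP90AA1 had 18 genes kept, 3 with a gap higher, 8 lower and 7 overlapping (median −0.09). The shares of all genes were 15.5% higher and 26.9% lower. STIP1, which hands clients from HSP70 to HSP90, had 70.6 FPKM with thalidomide and 85.6 with vehicle (−0.27 ± 0.04). TOMM70A, a mitochondrial import receptor that docks both chaperones, was at −0.26 ± 0.05. CDC37L1, a relative of the kinase cochaperone, had 5.74 FPKM with thalidomide and 4.22 with vehicle (0.37 ± 0.09). FKBP51, the files' symbol for the steroid receptor cochaperone FKBP5, had 26.2 and 20.7 FPKM (0.33 ± 0.03). Of the chaperonin list 9 of 11 genes (81.8%) were lower with a gap, 1 was higher and 1 overlapped (median −0.20). Of the 11, 6 had a mean from 75 to 500 FPKM. In that class 100% of these 6 and 82.3% of all genes were lower with a gap. The list holds subunits of the cytosolic TRiC ring, such as CCT5 (54.6 FPKM with thalidomide and 65.9 with vehicle, −0.27 ± 0.02) and CCT6 (−0.08 ± 0.02), and of prefoldin, which feeds it. The prefoldin genes PFDN2, at 71.1 and 87.7 FPKM (−0.30 ± 0.05), and PFDN4, at 45.1 and 38.5 FPKM (0.22 ± 0.05), stood at its opposite ends. With equal FPKM totals 7 of the 11 were below 0 and 4 above, where the median of all genes was 0.08.

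Small heat shock proteins were scarce: of 7 with a row 4 reached 1 FPKM. Of these 4, 1 was lower with a gap, against 26.9% of all genes. That was HSPB1, which encodes the HSP27 type of small chaperone, with 15.1 FPKM with thalidomide and 19.6 with vehicle (−0.35 ± 0.10). HSPB8, which works with BAG3, had 6.60 and 7.11 FPKM with overlapping intervals (−0.09 ± 0.09). Of the heat shock factors and their regulators other than HSF2, 4 were kept and 1 had a gap, against 42.4% of all genes in either direction. It was HSBP1, which in mammals binds and restrains the trimeric factor, with 34.9 FPKM with thalidomide and 45.6 with vehicle (−0.38 ± 0.12). The row HSF1 had 27.1 FPKM with thalidomide (24.0 to 30.1) and 24.2 with vehicle (21.3 to 27.1), with overlapping intervals (0.15 ± 0.11). It lies on an unplaced scaffold, and because RefSeq gives HSF1 as a synonym of HSF3, the bird factor of the stress response, the symbol alone does not show which factor it measures. HSF2 stood at 0.901 ± 0.053 of that row with thalidomide and 1.03 ± 0.06 with vehicle.

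**Figure D4:**
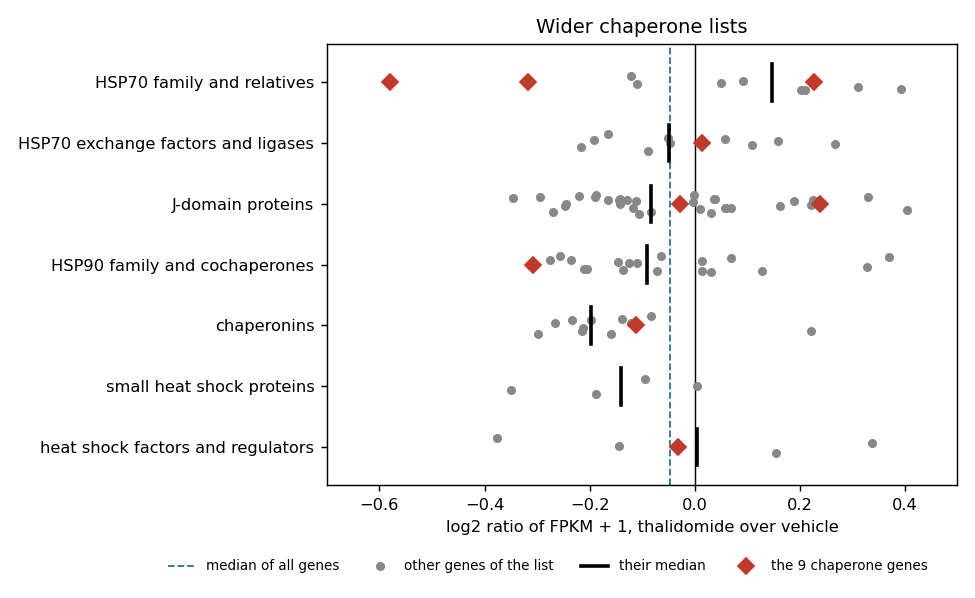
Log2 ratio of FPKM + 1, thalidomide over vehicle, of each kept gene in 7 chaperone lists (grey points, with the list median as a black bar) and of the 9 chaperone genes in the row of their role (red diamonds), with the median of all genes as a dashed line. The HSP70 row holds hsp70 at −0.58 and HSPA8 at −0.32 on the left and HYOU1 at 0.39 on the right, and the chaperonin row lies left of 0 except for PFDN4.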

How the data were processed

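The authors deposited, for each library, FPKM per gene and its confidence limits, per the file headers. Cufflinks 2.2.1, Cuffdiff, STAR 2.4.2a, bcl2fastq and the assembly galGal4 appear in the submitters' processing notes, without the step of each. Whether counting used strand is not given in the sources read. Rows of one symbol were summed (126 symbols), leaving 16761 genes, of which the 10917 that reached 1 FPKM in either library were kept. The log2 ratio used a pseudocount of 1 FPKM. Its error takes each upper limit as 2 errors above the value, a reading under which 88.3% of thalidomide and 87.7% of vehicle genes below 10 fragments gave whole fragment numbers within 0.02. Genes were counted at 1.5-fold and where the 2 deposited intervals did not overlap. FPKM values suit no count test, and with 1 library per treatment there is no p-value.

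Locus starts in the tables count from 0, since 15 of 18 coding loci of 1 exon then span whole codons, and were raised by 1. No sequence was used here. The members and lists were chosen with earlier results of these data known. Named genes are the 9 members, HSP90AB1, HSPE1, HSPH1, HSF1 and HSPA5, and the 2 highest and 2 lowest ratios of each list among genes with 5 FPKM or more in either library. SNORD14, SNORA66, HOXA13 and TUBB3 were named after their values were seen. Listed FKBP5 and CCT6A matched older symbols in the RefSeq table. The ratio and its error were checked on simulated data that held counting error only, for genes at 5 FPKM or more with vehicle and enough fragments. Both counts were recorded there without a pass rule. Python 3.11.15, numpy 2.4.6 and pandas 2.3.3 were used.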

Additional observations from a re-analysis of the deposited data

How the results depend on the processing

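For the 9 chaperone genes, a pseudocount of 0.1 FPKM moved no log2 ratio by more than 2 of its errors. No filter, a filter of 5 FPKM and use of the longest locus of each symbol could not move them. Each of the 9 has a single row and lies above 5 FPKM in both libraries. The median over the 9 genes, −0.03, changed sign to 0.016 when centred on all genes, to 0.11 with equal FPKM totals and to 0.15 with mitochondrial and haemoglobin genes left out of the totals. HSPD1 changed sign to 0.037 and 0.076 in those 2 rescalings, and hsp70 ran from −0.58 to −0.39 over all alternatives. Leaving out mitochondrial and haemoglobin genes gave 5 of the 9 genes a gap with thalidomide higher, in place of 2, against 37.6% of all genes. HSPA4 and DNAJB4 were joined by BAG3, HSF2 and HSPD1. In that setting 3 of the 9 (hsp70, HSP90AA1 and HSPA8) stayed lower with a gap, against 7.7% of all genes. With equal FPKM totals 3 of the 9 were higher and 3 lower with a gap, against 32.1% and 10.4% of all genes. With a size rule of 25% on the FPKM + 1 scale in place of 1.5-fold, 1 of the 9 was lower (hsp70), and of the other chaperone genes 6 were higher and 3 lower, against 6.14% of all genes higher and 8.71% lower. Of the other chaperone genes, 30 had a gap higher and 8 lower with equal totals (32.1% and 10.4% of all genes), and 37 and 2 without mitochondrial and haemoglobin genes (37.6% and 7.7%). The shifts under rescaling come from 1 factor per library. No paired analysis was possible because each treatment has 1 library, and none could be left out.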
